A study of Drosophila melanogaster with 8 samples.

Results

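The Enhancer of split complex is a run of Notch-responsive genes on chromosome arm 3R of Drosophila melanogaster. Its members here are the 10 genes HLHmgamma, HLHmdelta, HLHmbeta, HLHm3, HLHm5, HLHm7, E(spl), m4, m6 and malpha, chosen by name among the 14210 genes of the files. The first 7 encode basic helix-loop-helix (bHLH) proteins and the last 3 Bearded-type proteins. The gene that the files call E(spl) is m8, which the reference annotation names E(spl)m8-HLH. All 10 names were found in all 8 library tables. Each member has 1 annotated transcript in the files, and no other gene of the files overlaps any of them.

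When a ligand binds the receptor Notch, the receptor is cut and its intracellular part joins the DNA-binding protein Su(H) and the co-activator Mastermind to switch on the Enhancer of split genes. The bHLH proteins are repressors that recruit the co-repressor Groucho and oppose the proneural genes, while Bearded-type proteins bind the ubiquitin ligase Neuralized and dampen the ligand Delta. In the larval brain a dividing neuroblast keeps Notch signalling and its daughter loses it through Numb, and Notch acts again when the ganglion mother cell divides into unlike sister neurons.

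Polyadenylated RNA was measured in neuroblasts and in neurons, their differentiated daughter cells, both sorted by flow cytometry from wild type larval brains late in the third instar. The flies carried asense-Gal4, a driver under the control of the proneural gene asense, with UAS-stingerGFP, so both groups carry the same transgenes and nuclear green fluorescent protein. Eggs were laid for 24 h and larvae were kept for 5 more days at 25 degrees. There were 5 libraries of 3 neuroblast replicates and 3 libraries of 2 neuron replicates, with 2 technical replicates for each of neuroblast 2, neuroblast 3 and neuron 1. The labels do not say how many brains went into a replicate or whether replicates are separate sorts.

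The sorted cells carried the markers of their labels. All 6 neuroblast markers were higher in neuroblasts, with summed levels of 1321 to 1570 FPKM (fragments per transcript length and per library depth) in the neuroblast replicates and 45.4 to 77.2 FPKM in the neuron replicates. All 6 neuron markers found in the files were higher in neurons, with sums of 10.9 to 115 FPKM in neuroblasts and 590 to 859 FPKM in neurons. The neuron markers stood at a median of 16.6%, 6.69% and 0.338% of their mean neuron level in neuroblast 1, 2 and 3. Markers of intermediate progenitors (erm, ham, pnt, D) summed to 18.3 to 39.3 FPKM in neuroblasts and 141 to 181 FPKM in neurons, and all 4 were higher in neurons. Of 6 tested glial markers 1 (Eaat1) was higher in neuroblasts and 4 (repo, moody, alrm, gcm) in neurons, with sums of 145 to 227 FPKM and 95.8 to 130 FPKM. Most of these sums came from nrv2, which did not pass, and Eaat1. Their means were 123 and 65.1 FPKM in neuroblasts, and 66.7 and 9.05 FPKM in neurons. The test took genes with 1 FPKM in at least 2 replicates. Among the markers, moody and pnt were under 1 FPKM in every neuroblast replicate. repo and Gad1 reached it in neuroblast 1 alone among the neuroblasts, and alrm in neuroblast 3 alone. All of these entered the test through the neurons, so their direction was close to given. Hemocyte markers summed to at most 0.714 FPKM in neuroblasts and 14.7 FPKM in neurons, with He at 0 in all libraries. Fat body markers summed to at most 0.109 FPKM and 0.703 FPKM. The part these other cells may have in the levels given next was not tested. Fragments of genes with a single transcript summed to 953171 in the shallowest library, neuron 2, and 16282071 in the deepest, the second library of neuroblast 3.

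The difference between the cell types varied from gene to gene of the Enhancer of split complex. Among the tested members HLHmgamma alone had a log2 fold change (neuroblast minus neuron) above 0. HLHmgamma was higher in neuroblasts, HLHm7, m6, HLHm3 and m4 were higher in neurons, and E(spl), HLHmbeta, HLHmdelta and malpha did not pass the test. HLHm5 was under the filter of 1 FPKM in at least 2 replicates and was not tested. The test was limma over all 7975 genes that passed the filter, with Benjamini-Hochberg adjustment and a threshold of 0.05. Of all tested genes 63.3% were called, 33.4% as higher in neuroblasts and 29.9% as higher in neurons. Among the 9 tested members the counts were 1 and 4 in those directions, and their median log2 fold change was -0.68, against 0.17 over all tested genes. With upper quartile or protein-coding sum scaling, 7 members were called higher in neurons, as were 3017 and 3487 of the 7975 tested genes. HLHm3 and m4 were under 1 FPKM in every neuroblast replicate and entered the test through the neurons alone, so their direction was close to given. The replicates of the groups did not overlap for 7 of the 9 tested members, against 78.6% of all tested genes. In sorted bulk samples, fewer cells with a transcript and less transcript per cell cannot be told apart.

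**Figure D1:**
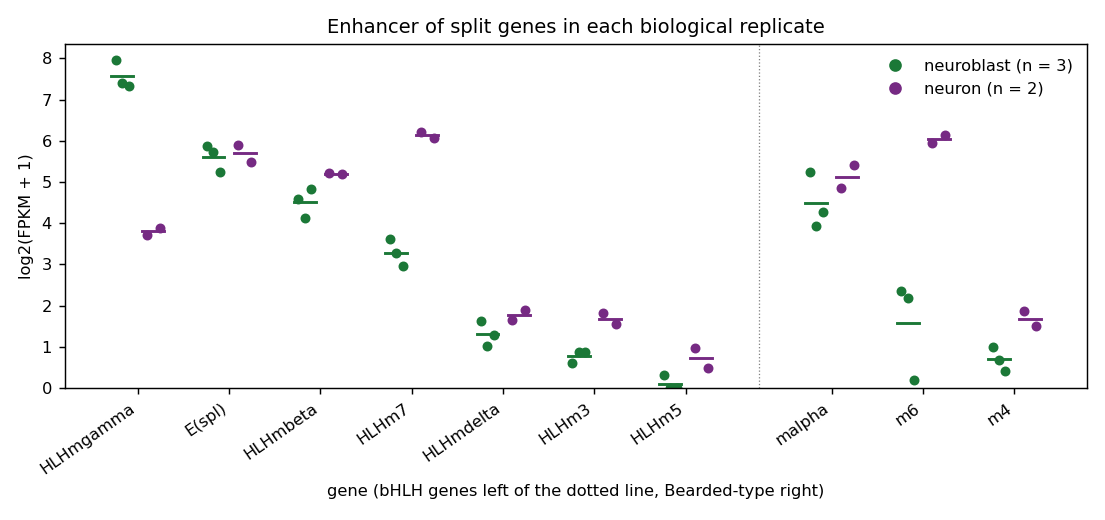
Expression of the 10 Enhancer of split genes on the log2(FPKM + 1) scale, with 1 point for each biological replicate (technical replicates averaged in FPKM) and a bar at the group mean of the points. HLHmgamma stands at 159 to 246 FPKM in neuroblasts and 12.2 to 13.8 FPKM in neurons, while HLHm7 and m6 stand at 60.2 to 73.2 FPKM in neurons and at most 11.2 FPKM in neuroblasts.

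HLHmgamma, a bHLH repressor known as a Notch target in neuroblasts, was the most abundant member in neuroblasts. It stood at 246, 169 and 159 FPKM in neuroblast 1, 2 and 3, against 12.2 and 13.8 FPKM in neuron 1 and 2. The lowest neuroblast replicate was far above the highest neuron replicate. Means were 192 ± 47.6 FPKM in neuroblasts (SD, n = 3) and 13.0 ± 1.11 FPKM in neurons (SD, n = 2), a ratio of 14.8. On the log2(FPKM + 1) scale used for all fold changes here, which understates changes of low genes, it was higher in neuroblasts by 3.76 (SE 0.28, 95% interval 3.10 to 4.42), with adjusted p = 0.000305 (limma). Between 1267 and 6223 fragments lay behind each neuroblast library's value and 52 to 78 behind each neuron library's. In the neuron replicates HLHmgamma stood at 6.36% and 7.18% of its mean neuroblast level, while the neuroblast markers stood at medians of 3.41% and 4.40%. Single markers spanned that value, from 0.940% for grh to 59.3% for ase.

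HLHm7, another bHLH gene of the complex, had the opposite pattern. It stood at 11.2, 8.67 and 6.81 FPKM in neuroblast 1, 2 and 3, against 73.2 and 66.3 FPKM in neuron 1 and 2. All neuroblast replicates were below both neuron replicates. Means were 8.89 ± 2.21 FPKM in neuroblasts (SD, n = 3) and 69.7 ± 4.84 FPKM in neurons (SD, n = 2), so the level in neurons was 7.84 times that in neuroblasts. On the log2 scale the difference was -2.86 (SE 0.29), with adjusted p = 0.000631 (limma). In neuroblast 1, 2 and 3 it stood at 16.1%, 12.4% and 9.77% of its mean neuron level, where the neuron markers had medians of 16.6%, 6.69% and 0.338%. The libraries of neuroblast 3 held 82 and 258 HLHm7 fragments, and the part of neuronal RNA in the neuroblast level of HLHm7 was not tested.

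HLHmgamma and HLHm7 took unlike shares of the bHLH transcripts in the cell types. The 7 bHLH genes summed to 341, 248 and 233 FPKM in neuroblast 1, 2 and 3, against 185 and 164 FPKM in neuron 1 and 2. Summed over all genes, FPKM came to 449268 to 753682 in the neuroblast libraries and 321551 to 343514 in the neuron libraries. Whether the bHLH sums differed beyond those totals was not tested. HLHmgamma made up 72.2%, 68.2% and 68.4% of the bHLH sum in the neuroblast replicates, against 6.58% and 8.38% in the neuron replicates. HLHm7 made up 3.28%, 3.49% and 2.92% in neuroblasts, against 39.5% and 40.3% in neurons. These shares were close among replicates of a cell type, and a share within a library does not depend on the scaling of that library. They carry no test, since the genes are members of a named list.

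**Figure D2:**
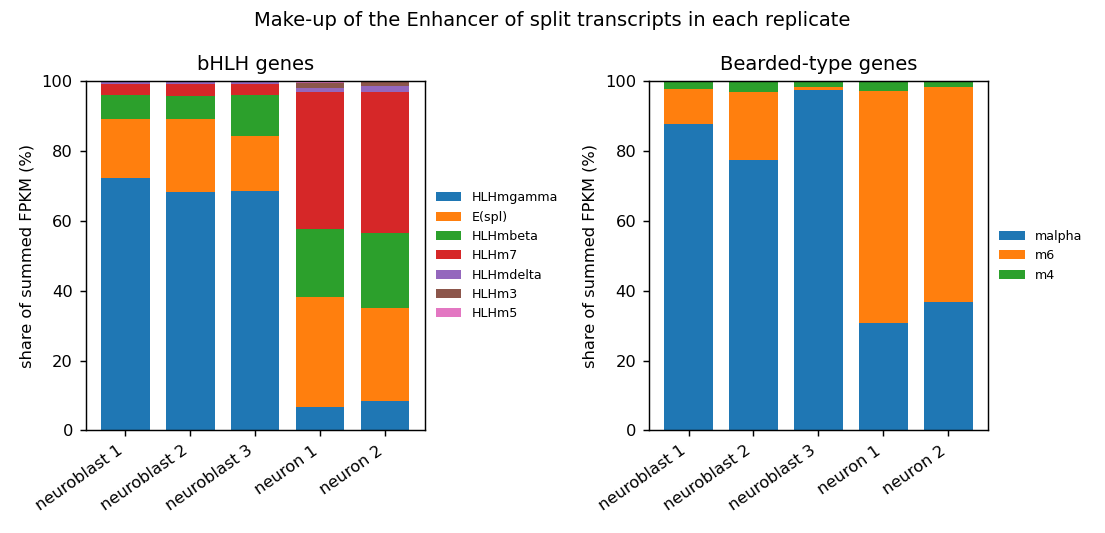
Share of each gene in the summed FPKM of the 7 bHLH genes (left) and the 3 Bearded-type genes (right), in percent, for each biological replicate, neuroblasts first. HLHmgamma fills 68.2% to 72.2% of the bHLH bars of neuroblasts, and HLHm7 39.5% to 40.3% of those of neurons; malpha leads the Bearded-type bars in neuroblasts and m6 in neurons.

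E(spl) and HLHmbeta were present in both cell types at levels that the test did not part. E(spl), the repressor for which the complex is named, stood at 57.9, 51.9 and 36.9 FPKM in neuroblast 1, 2 and 3, against 58.5 and 43.9 FPKM in neuron 1 and 2. The groups overlapped. Neuroblasts minus neurons gave -0.08, with a 95% interval of -0.77 to 0.61 and adjusted p = 0.83 (limma), so a difference of that width in either direction remains possible. HLHmbeta, a bHLH gene that is also widely active in imaginal discs, stood at 22.9, 16.6 and 27.6 FPKM in neuroblast 1, 2 and 3, against 36.0 and 35.4 FPKM in neuron 1 and 2. Its replicates did not overlap and were lower in neuroblasts, with -0.68 (95% interval -1.37 to 0.01) on the log2 scale at adjusted p = 0.076 (limma). With upper quartile, median ratio or protein-coding sum scaling or quantile normalization HLHmbeta passed, at -1.15, -0.93, -1.43 and -1.03 and adjusted p (limma) values of 0.00491, 0.0105, 0.00175 and 0.00617. It also passed with technical replicates kept apart, at -0.68 and 0.0445 (limma, adjusted), and without neuroblast replicate 3, at -0.84 and adjusted p = 0.0247 (limma).

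HLHmdelta, HLHm3 and HLHm5, all bHLH genes, were close to the floor of detection. HLHmdelta stood at 2.06, 1.02 and 1.45 FPKM in neuroblast 1, 2 and 3, against 2.12 and 2.71 FPKM in neuron 1 and 2. It had 8 to 62 fragments per library, and its log2 fold change of -0.45 (95% interval -1.11 to 0.21) had adjusted p = 0.19 (limma). With upper quartile and protein-coding sum scaling HLHmdelta passed, at -0.78 and -0.98, and with quantile normalization its sign turned, to 0.24, without a call. HLHm3 stood at 0.521, 0.827 and 0.829 FPKM in neuroblast 1, 2 and 3, against 2.52 and 1.93 FPKM in neuron 1 and 2. It was lower in all neuroblast replicates, with -0.90 (SE 0.23) on the log2 scale at adjusted p = 0.0131 (limma). Without neuron replicate 1 this was -0.77, with adjusted p = 0.0781 (limma), and with quantile normalization -0.05, with adjusted p = 0.893 (limma). With technical replicates kept apart and an estimated correlation, adjusted p = 0.0919 (limma). HLHm5 stood at 0.250 FPKM, from 2 fragments, in neuroblast 1 and was listed at 0 in all libraries of neuroblast 2 and 3, against 0.962 and 0.407 FPKM in neuron 1 and 2. Its neuron libraries held 5, 9 and 2 fragments.

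The Bearded-type genes were led by malpha in neuroblasts and by m6 in neurons. malpha, known as an inhibitor of Neuralized, stood at 36.6, 14.4 and 18.4 FPKM in neuroblast 1, 2 and 3, against 28.0 and 41.2 FPKM in neuron 1 and 2. Neuroblast 1 lay between the neuron replicates, and the log2 fold change of -0.65 (95% interval -1.65 to 0.36) had adjusted p = 0.215 (limma). Without neuroblast replicate 1 it was -1.02, with adjusted p = 0.0428 (limma). It also passed with upper quartile and protein-coding sum scaling, at -1.11 and -1.39.

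m6 was far lower in neuroblasts than in neurons. It stood at 4.09, 3.57 and 0.142 FPKM in neuroblast 1, 2 and 3, against 60.2 and 68.9 FPKM in neuron 1 and 2. Both neuron replicates were far above all neuroblast replicates, and neuroblast 3 was far below the other neuroblasts, with 1 and 10 fragments in its libraries. Means were 2.60 ± 2.15 FPKM in neuroblasts (SD, n = 3) and 64.6 ± 6.16 FPKM in neurons (SD, n = 2), so that the level in neurons was 24.8 times that in neuroblasts. On the log2(FPKM + 1) scale the contrast was -4.46 (SE 0.65), with adjusted p = 0.00142 (limma). In neuroblast 1, 2 and 3 m6 stood at 6.34%, 5.53% and 0.220% of its neuron mean, where the neuron markers had medians of 16.6%, 6.69% and 0.338%, and the part of neuronal RNA in its neuroblast level was not tested.

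m4, which like malpha is known to inhibit Neuralized, was low in both cell types. It stood at 0.988, 0.604 and 0.324 FPKM in neuroblast 1, 2 and 3, against 2.62 and 1.86 FPKM in neuron 1 and 2. It rested on 3 to 19 fragments per library, and its log2 fold change was -0.98 (SE 0.27), with adjusted p = 0.0154 (limma). Without neuron replicate 1 it was -0.82, with adjusted p = 0.0957 (limma), and with quantile normalization -0.16, with adjusted p = 0.594 (limma). Technical replicates kept apart gave adjusted p = 0.109 (limma). The 3 Bearded-type genes summed to 18.5 to 41.7 FPKM in neuroblasts and 90.9 to 112 FPKM in neurons. malpha made up 77.5% to 97.5% of that sum in neuroblasts and 30.8% and 36.8% in neurons, and m6 0.753% to 19.3% in neuroblasts and 66.3% and 61.5% in neurons.

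Within a cell type the members fell into steps of level. In neuroblasts the order of the means was HLHmgamma, E(spl), malpha, HLHmbeta, HLHm7, m6, HLHmdelta, HLHm3, m4 and HLHm5. The replicates of malpha and HLHmbeta overlapped there, as did those of m6 and HLHmdelta and those of HLHm3 and m4. In neurons the order was HLHm7, m6, E(spl), HLHmbeta, malpha, HLHmgamma, HLHmdelta, m4, HLHm3 and HLHm5. The replicates of HLHm7 and m6 overlapped there, as did those of HLHmbeta and malpha, of HLHmdelta and m4, and of m4 and HLHm3. E(spl) was thus at place 2 in neuroblasts and place 3 in neurons, while HLHmgamma was at place 6 in neurons. Among all 14210 genes HLHmgamma ranked 423 in neuroblasts and 4143 in neurons, and HLHm7 5213 in neuroblasts and 871 in neurons.

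The files place the members within 43298 bases of chromosome arm 3R, from 21823343 to 21866640, on a build not given in the sources used here. The order is HLHmdelta, HLHmgamma, HLHmbeta, malpha, m1, m2, HLHm3, m4, HLHm5, m6, HLHm7 and E(spl), followed by groucho (gro). HLHmgamma (FBgn0002735, 21825573 to 21826483) lies between HLHmdelta (FBgn0002734, 21823343 to 21824355) and HLHmbeta (FBgn0002733, 21830768 to 21831745), neither of which was higher in neuroblasts. At the other end m6 (FBgn0002632, 21858633 to 21859769) and HLHm7 (FBgn0002633, 21862760 to 21863741), the members with the strongest fall in neuroblasts, are neighbours. E(spl) (FBgn0000591, 21865977 to 21866640), the next gene, did not pass the test.

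Of the other genes in this stretch, m1, which encodes a Kazal-type protease inhibitor, was listed at 0 in all libraries but those of neuroblast 2, where its replicate value was 0.195 FPKM, and was not tested. m2, another Bearded-family gene, stood at 0.488, 0.323 and 0.636 FPKM in neuroblast 1, 2 and 3, against 2.74 and 1.09 FPKM in neuron 1 and 2. It entered the test through the neurons alone. The difference on the log2 scale was -0.92, with adjusted p = 0.0302 (limma), and it passed neither without neuroblast replicate 2 (-0.84, adjusted p = 0.0837, limma) nor without neuron replicate 1 (-0.50, adjusted p = 0.174, limma). With technical replicates kept apart it had -0.93 and adjusted p = 0.0825 (limma). gro, whose protein the bHLH repressors recruit, stood at 98.8, 77.7 and 57.3 FPKM in neuroblast 1, 2 and 3, against 111 and 173 FPKM in neuron 1 and 2. It was lower in all neuroblast replicates but did not pass, with -0.86 on the log2 scale at adjusted p = 0.0565 (limma). It passed without neuroblast replicate 1 and with each of upper quartile, median ratio, protein-coding sum and quantile scaling, at -1.04, -1.33, -1.11, -1.62 and -1.44.

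**Figure D3:**
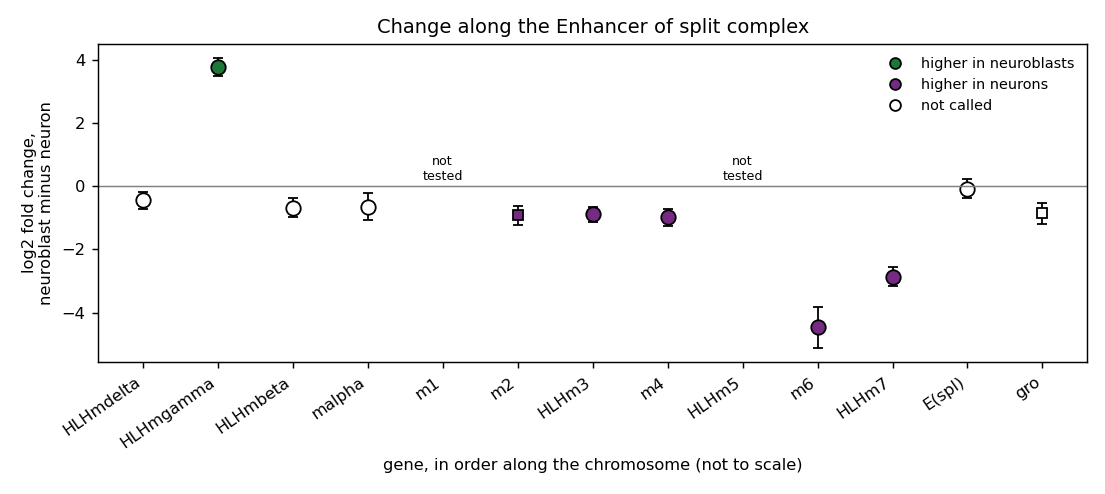
Log2 fold change, neuroblast minus neuron, of each gene in its order along the complex, with error bars of 1 standard error of the limma fit; circles are members, squares the neighbours m2 and gro. HLHmgamma is the single gene above 0 by 3.76, and m6 and HLHm7 lie lowest, at -4.46 and -2.86.

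Related repressors outside the complex parted as strongly. Deadpan (dpn), a bHLH repressor of the same family that keeps neuroblasts self-renewing, stood at 135, 119 and 152 FPKM in neuroblast 1, 2 and 3, against 2.35 and 4.27 FPKM in neuron 1 and 2. It differed by 5.02 on the log2 scale at adjusted p = 0.000209 (limma). Hey, a family member known to be switched on by Notch in newborn neurons, stood at 5.28, 2.90 and 0.223 FPKM in neuroblast 1, 2 and 3, against 65.8 and 53.4 FPKM in neuron 1 and 2. It differed by -4.28 (SE 0.66) on the log2 scale at adjusted p = 0.00167 (limma), and in neuroblast 1, 2 and 3 it stood at 8.86%, 4.87% and 0.374% of its neuron mean. Levels of Hey and m6 fell in the order neuroblast 1, 2 and 3, as those of the neuron markers did. HLHmgamma and the neuroblast marker grh (172, 154 and 118 FPKM) had that order too, while the other neuroblast markers did not. Among the members E(spl) (57.9, 51.9 and 36.9 FPKM), HLHm7 and m4 had it as well. HLHmbeta, HLHmdelta, HLHm3 and malpha did not. The part of neuronal RNA in the neuroblast level of Hey was not tested. In neuroblasts HLHmgamma and dpn were the 2 most abundant of these repressors, and in neurons HLHm7, Hey and E(spl) were.

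Of the remaining genes of that family, clockwork orange (cwo) was higher in neurons at -1.10 on the log2 scale at adjusted p = 0.0442 (limma). It did not pass without neuroblast replicate 2 (-1.18, adjusted p = 0.072, limma), without neuron replicate 1 (-1.30, adjusted p = 0.103, limma) or without neuron replicate 2 (-0.89, adjusted p = 0.23, limma). Hairy (h) stood at no more than 1.17 FPKM in any replicate and Her at 0, and neither was tested. Of the Bearded-family genes outside the complex, Tom was under 1 FPKM in every neuroblast replicate, entered the test through the neurons alone, and passed at -0.63 with adjusted p = 0.0483 (limma). It did not pass without neuroblast replicate 1 or 2 or neuron replicate 1 or 2, at -0.54, -0.58, -0.57 and -0.69 and adjusted p (limma) values of 0.133, 0.122, 0.169 and 0.119. Brd, Ocho and BobA stood at no more than 0.732 FPKM in any replicate.

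Genes that carry the Notch signal also went both ways. Of 25 listed, 8 were higher in neuroblasts, 5 were higher in neurons and 12 did not pass, with a median log2 fold change of -0.05, against 0.17 over all tested genes. These shares were not above those of all tested genes, of which 33.4% and 29.9% were called. Of the 5 higher in neurons, Ser and fng met the filter through the neurons alone, so their direction was close to given. Leaving out neuron replicate 2 gave 4 and 2, and leaving out neuron replicate 1 gave 6 and 3. With the protein-coding sum they were 3 and 14, and with upper quartile scaling 5 and 9.

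The receptor Notch (N) stood at 46.8, 71.8 and 44.0 FPKM in neuroblast 1, 2 and 3, against 21.1 and 14.3 FPKM in neuron 1 and 2. On the log2 scale the difference was 1.55, with adjusted p = 0.00516 (limma), and 1.28 without neuron replicate 2, with adjusted p = 0.0571 (limma). With upper quartile or protein-coding sum scaling N did not pass either. The ligand Delta (Dl) stood at 27.2, 33.2 and 17.7 FPKM in neuroblast 1, 2 and 3, against 6.60 and 7.90 FPKM in neuron 1 and 2, with 1.68 on the log2 scale at adjusted p = 0.00463 (limma). Scaled by the protein-coding sum Dl lost its call, at 0.98 and adjusted p = 0.0835 (limma). The other ligand, Serrate (Ser), was at most 0.223 FPKM in neuroblasts and 1.79 and 2.05 FPKM in neurons, a difference of -1.36 (adjusted p = 0.00157, limma), and it entered the test through the neurons alone.

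The Notch trafficking gene spdo was higher in neuroblasts at a log2 fold change of 1.90 (adjusted p = 0.00106, limma), and so was numb, the Notch inhibitor passed to the daughter cell, at 1.34 (adjusted p = 0.00288, limma). With the protein-coding sum numb had 0.58 and did not pass. The ubiquitin ligase gene neur, which Bearded-type proteins inhibit, stood at 91.2, 102 and 58.1 FPKM in neuroblast 1, 2 and 3, against 27.6 and 31.2 FPKM in neuron 1 and 2. Neuroblasts minus neurons gave 1.44 (adjusted p = 0.00574, limma), and without neuron replicate 1 it was 1.36, with adjusted p = 0.0534 (limma). With upper quartile or protein-coding sum scaling neur did not pass. O-fut1 and rumi, which add sugars to Notch, were higher in neuroblasts at 1.90 and 1.45, and neither passed without neuron replicate 2, with adjusted p (limma) values of 0.0688 and 0.0698. lqf, the epsin needed for ligand endocytosis, and fng, a glycosyltransferase that tunes ligand choice, were higher in neurons at -1.33 and -0.92, with adjusted p (limma) values of 0.00872 and 0.0107. lqf did not pass without neuron replicate 2 (-1.09), nor fng without neuron replicate 1 (-0.88). On the flow cell that held both cell types neither passed, at -0.98 for lqf and -0.93 for fng. fng was low, with means of 0.838 FPKM in neuroblasts and 2.45 FPKM in neurons. Of the neuroblast replicates only neuroblast 1 reached 1 FPKM, at 1.04 FPKM, so fng met the filter through the neurons. It did not pass with quantile normalization (-0.11, adjusted p = 0.725, limma) or with technical replicates kept apart (adjusted p = 0.173, limma).

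Among the nuclear effectors mam was higher in neurons, and Su(H), H, gro and CtBP did not pass. The co-activator mastermind (mam) stood at 37.7, 23.1 and 5.64 FPKM in neuroblast 1, 2 and 3, against 155 and 190 FPKM in neuron 1 and 2. On the log2(FPKM + 1) scale the contrast was -3.23 (SE 0.68, adjusted p = 0.00573, limma), and -3.08 without neuron replicate 2, with adjusted p = 0.0537 (limma). Its level fell in the order neuroblast 1, 2 and 3. The neuron markers had that order, and so did HLHmgamma, grh, E(spl), gro, Su(H) and H. The part of neuronal RNA in the neuroblast level of mam was not tested. Su(H) stood at 13.7, 13.3 and 10.2 FPKM in neuroblast 1, 2 and 3, against 17.3 and 20.6 FPKM in neuron 1 and 2, and did not pass at -0.58 (adjusted p = 0.111, limma). Hairless (H), which turns Su(H) into a repressor, did not pass at -1.02 (adjusted p = 0.0559, limma). With upper quartile, median ratio, protein-coding sum and quantile scaling Su(H) and H both passed, as higher in neurons. H also passed without neuroblast replicate 1, at -1.28.

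**Figure D4:**
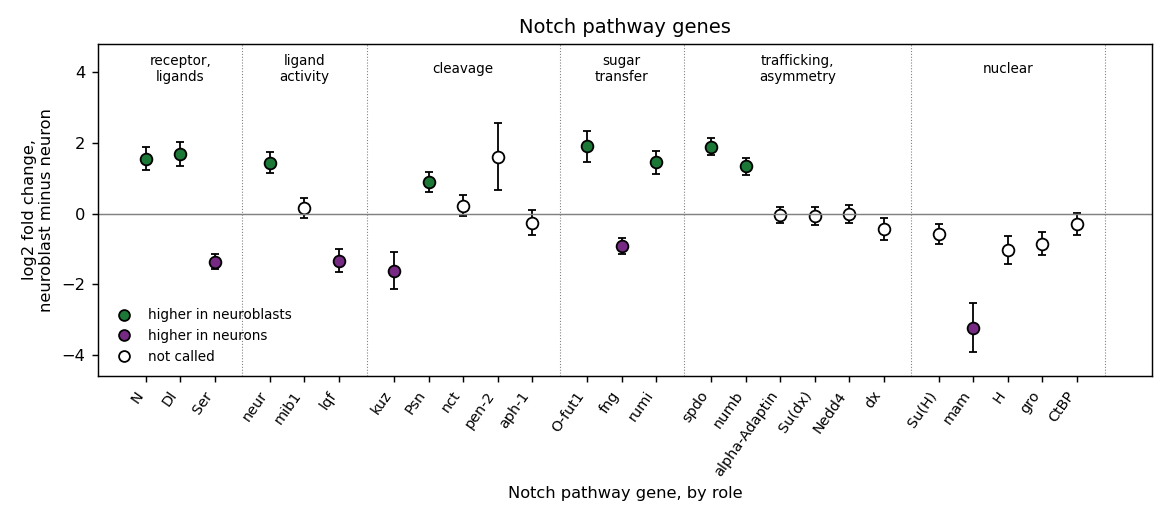
Log2 fold change, neuroblast minus neuron, of the 25 Notch pathway genes by role, with error bars of 1 standard error of the limma fit and filled points for genes called at an adjusted p under 0.05. N and Dl lie above 0 at 1.55 and 1.68, and mam lies lowest at -3.23.

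The proneural genes, which the bHLH repressors oppose, and their partners moved in both directions as well. Of 10 listed, 6 were tested, 2 were higher in neuroblasts and 4 in neurons, where 33.4% and 29.9% of all tested genes were called in those directions. Of these 6, l(1)sc and ato entered the test through 1 cell type alone. asense (ase), whose driver marks the cells, stood at 105, 58.1 and 69.4 FPKM in neuroblast 1, 2 and 3, against 21.3 and 46.1 FPKM in neuron 1 and 2. It differed by 1.24 on the log2 scale at adjusted p = 0.0314 (limma), and without neuroblast replicate 1 or 3 or neuron replicate 1 it did not pass, at 1.00, 1.29 and 0.70 and adjusted p (limma) values of 0.0623, 0.0588 and 0.241. It passed under none of the upper quartile, median ratio, protein-coding sum and quantile scalings, at 0.77, 0.99, 0.49 and 0.88. l(1)sc, a gene of the achaete-scute complex, was at most 1.85 FPKM in any replicate, entered the test through the neuroblasts alone, and passed at 1.05, but not without neuron replicate 2, at 0.85 with adjusted p = 0.0869 (limma). Extra macrochaetae (emc), an inhibitor of proneural proteins, stood at 99.2, 47.3 and 47.6 FPKM in neuroblast 1, 2 and 3, against 178 and 320 FPKM in neuron 1 and 2. The difference on the log2 scale was -1.96 (adjusted p = 0.0063, limma), and -1.54 without neuron replicate 2, with adjusted p = 0.0661 (limma). The partner daughterless (da) had -1.19 (adjusted p = 0.0163, limma). It did not pass on the shared flow cell, at -0.73 and adjusted p = 0.102 (limma), or without neuron replicate 2, at -0.95 with adjusted p = 0.135 (limma). tap had -1.11 and passed neither without neuron replicate 1 nor without neuron replicate 2, with adjusted p (limma) values of 0.0591 and 0.0544. ato, at most 1.68 FPKM and tested through the neurons alone, had -0.98, and it did not pass with quantile normalization (-0.14, adjusted p = 0.665, limma) or with technical replicates kept apart (adjusted p = 0.0752, limma).

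Genes of the complex were left out of a search for the 3 genes whose levels were most like those of HLHmgamma and of m6. Those found were not on the pathway lists. A listed gene, Hey, also had levels near those of m6. They were 5.28, 2.90 and 0.223 FPKM in neuroblast 1, 2 and 3, against 65.8 and 53.4 FPKM in neuron 1 and 2. Likeness was the Euclidean distance between log2(FPKM + 1) values over the 5 replicates. For HLHmgamma the nearest were Tal, CG30410 and Ote, at distances of 0.80, 0.84 and 0.85. For m6 they were sick, wnd and CG15207, at 0.34, 0.49 and 0.51. The gene sick stood at 4.42, 2.87 and 0.293 FPKM in neuroblast 1, 2 and 3, against 65.5 and 67.6 FPKM in neuron 1 and 2.

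The authors' deposited table lists 3532 genes at an adjusted p of at most 0.00995, where the library files hold 14210 genes. It holds 3 of the 10 members, a share close to that over all genes. In that table HLHmgamma has a log2 fold of 3.74 with an adjusted p of 3.06e-13, HLHm7 -3.12 with 6.27e-08 and m6 -4.69 with 6.53e-13, neuroblast over neuron. These 3 members also kept their calls under all 19 alternative settings of the limma fit. Neuroblast 1 and 2 and neuron 1 ran on 1 flow cell, as the deposited names give it, and the other 3 flow cells each held 1 cell type. Within the shared flow cell, where the lone neuron replicate is assumed to vary like the neuroblasts, the differences were 3.96 for HLHmgamma, -2.77 for HLHm7 and -3.67 for m6, each at 0.0116 (limma, adjusted). HLHm3 had -1.07 there and E(spl) -0.10. Over all 19 settings the log2 fold change ran from 3.02 to 3.96 for HLHmgamma, from -3.60 to -2.44 for HLHm7 and from -5.41 to -3.24 for m6.

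**Figure D5:**
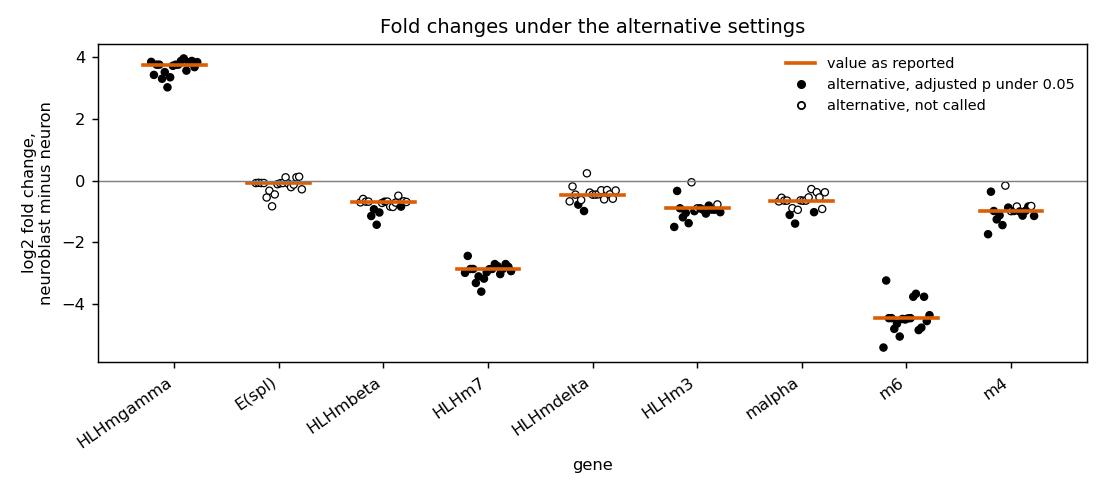
Log2 fold change, neuroblast minus neuron, of the 9 tested members as reported (orange bars) and refitted under each alternative (points, filled where the limma adjusted p was under 0.05). The points of HLHmgamma, HLHm7 and m6 are all filled and stay on 1 side of 0, while those of E(spl) lie between -0.83 and 0.13 and are all open.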

How the data were processed

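The members and the gene lists were chosen with earlier results of these data known. Each library file holds an FPKM per gene with its confidence bounds and a status, made by the authors, in the columns of a Cufflinks gene table per the file headers; FPKM divides a fragment count by transcript length and library size. A further table gives, per the file headers, the authors' fold as a ratio and as log2, with p-value and adjusted p; it names neuron as condition A and nb as condition B in every row. The submitters' processing notes name Cufflinks 1.3.0, DESeq 1.8.3, HTSeq, TopHat 1.4.1 and BWA 0.6.1, with no role or order. Strand was marked with dUTP, per the labels' protocols; whether the counting used the strand and which genome build was used are not given in the sources used here. Positions are copied from the files, counted from 1. Names and biotypes came from an annotation of release 115, on a different build, which matched 13575 of the 14210 gene identifiers.

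Technical replicates were averaged, on the log2 scale for tests and in FPKM for printed levels. The test was limma 3.58.1 (R 4.3.3), two-sided, neuroblast minus neuron, on log2(FPKM + 1) values and with a variance trend, adjusted by Benjamini-Hochberg over the 7975 genes that reached 1 FPKM in 2 or more of the 5 replicates. p-values measure the spread between these replicates, which the labels do not tie to separate animals or sorts. Fragments behind a value were recovered from the Cufflinks upper bound, taken as 2 SD of a count above the value. For the members 76 of 80 came out whole within 0.05 fragments, and a fragment number carries counting error alone. The script was tested on simulated data. Alternatives changed the pseudocount, filter, scaling, technical replicates, prior variance, replicate block, threshold, flow cell and each replicate left out; apart from the filter alternatives, they kept the same tested genes. Named are all members, the neighbours in the complex, genes of the fixed lists (for the Notch list up to 4 called genes a direction by adjusted p, the receptor, ligands and nuclear effectors), and the 3 nearest genes of the member with the largest change in each direction; neur, O-fut1 and rumi were added after their values were seen. BobB, BobC, CG10446, ChAT and NimC1 were not found under these names and are not analysed here.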

Additional observations from a re-analysis of the deposited data

How the results depend on the processing

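HLHmgamma (higher in neuroblasts), HLHm7 and m6 (higher in neurons) kept direction and call under all 19 alternatives. Over the 9 tested members, 144 of 168 alternative values kept both, 9 lost the call, 11 gained it and 4 changed sign. The sign changes were uncalled values: HLHmdelta had 0.24 with quantile normalization, and E(spl) 0.11 both with the replicate block and without neuroblast replicate 3. Those settings give the same fold change by construction, since the block leaves neuroblast 3 without a neuron replicate, but they were counted apart. Over the replicates left out E(spl) ran from -0.28 to 0.13. Tom had 0.17 with quantile normalization. The members higher in neurons numbered 4, and 2 with a filter at 5 FPKM, a minimum log2 fold change of 1 or an adjusted p under 0.01, 7 with upper quartile or protein-coding sum scaling, and 2 to 5 with 1 replicate left out. The filter and threshold act by construction; the cause of the rest was not tested. The Notch pathway genes, 8 higher in neuroblasts and 5 in neurons, numbered 5 and 9 when scaled by the upper quartile, and 3 and 14 when scaled by the protein-coding sum. Those higher in neurons were 8 with median ratio scaling, 3 with the filter at 5 FPKM or an adjusted p under 0.01 and 2 on the shared flow cell, and ran from 2 to 7 with a replicate left out, while those higher in neuroblasts ran from 4 to 8. Over all genes 2667 were higher in neuroblasts, 1744 under protein-coding scaling and 1674 to 2629 with a replicate left out. The split of calls moved with the scaling, from 52.8% higher in neuroblasts to 41.4% (upper quartile) and 33.3% (protein-coding sum), as did the median log2 fold change of all genes from 0.17 to -0.26 and -0.53.

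The shared replicate numbers are not shown to pair the samples: deviations from the group means had a Pearson r of -0.52 for the samples numbered 1 and -0.39 for those numbered 2, across genes, which are not independent. The deviations of 2 neuron replicates mirror each other by construction. Neuroblast 1 with neuron 2 thus had 0.52, and neuroblast 2 with neuron 1 had 0.39. Under the replicate block 3 members were called for neurons and 1 for neuroblasts, as were 1977 and 2047 of all tested genes. There 7 named genes (m4, cwo, Tom, Psn, fng, ase, da) lost their call. Most flow cells hold 1 cell type, so that flow cell and cell type cannot be told apart outside the shared one. With 3 against 2 replicates the printed intervals show how wide a difference remains possible, and HLHm5, HLHm3 and m4 rested on few fragments.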
